A study of Rattus norvegicus with 241 samples.

Results

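RNA of basal epithelial cells, sorted from the mammary glands of young ACI rats, was measured by bulk RNA-seq on the day on which 10 days of treatment with a TGFβ receptor inhibitor (TGFBRi) ended. All libraries of the normal ACI experiment that are labelled basal and day 0 were taken, 3 from TGFBRi-treated and 3 from vehicle-treated rats, which makes 6 of the 241 samples of the series and of its 202 bulk samples. The other samples of the series come from other cell types, days, ages, tumors and a second rat strain, SD, or were measured by single-cell RNA-seq, among them 6 libraries of the same sort, day and treatment. The 6 rats were virgin females of the ACI strain, aged about 35 days when dosing began. TGFBRi was LY2157299 (galunisertib), an oral inhibitor of the kinase of the TGFβ type I receptor. It was given at 75 mg/kg per dose with 2 doses per day, and vehicle rats received the carrier of the drug. Basal cells were sorted as CD24+ CD29high cells among cells negative for CD31 and CD45, which mark endothelium and leukocytes. Each library came from a different rat, and the same 6 rats also gave libraries of sorted luminal cells.

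TGFβ ligands bind a type II receptor, which activates the type I receptor, and this receptor kinase then phosphorylates SMAD2 and SMAD3. These SMADs enter the nucleus with SMAD4 and raise transcription of targets, among them genes that limit the pathway itself such as SMAD7 and PMEPA1. In the mammary gland TGFβ is known to restrain the growth of ducts, and basal cells, which lie against the basement membrane, carry keratins 5 and 14, hemidesmosomes and the contractile proteins of smooth muscle. The comparison addressed which genes of these cells differed at the end of receptor inhibition.

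The libraries of TGFBRi rats 1 and 2 stood apart before any gene was compared. Reads on genes numbered 18200891, 18781674 and 12382292 in vehicle rats 1 to 3 and 6562769, 4194912 and 15136358 in TGFBRi rats 1 to 3. When every library was thinned to 4194912 reads, 12491, 12030 and 13707 genes lay above 0 in the vehicle rats and 14867, 15297 and 13093 in the TGFBRi rats. TGFBRi rats 1 and 2 thus had the fewest reads and the most genes above 0, and olfactory receptor genes, which mammary cells are not known to use, were above 0 for 412 and 514 of 639 listed genes in these rats and for 12 to 339 in the other 4. The basal sort was visible in all 6 libraries, as 9 basal epithelium markers summed to 236305 to 295990 normalized counts with vehicle and 101586 to 199759 with TGFBRi, against 1171 to 2312 in the luminal libraries of day 0. TGFBRi rat 3 stood apart by fibroblast markers (9 genes), which summed to 511972 there and to 37513 to 128395 in the other 5 rats. Results are therefore also given without TGFBRi rats 1 and 2 and without TGFBRi rat 3, alternatives of which the former was added after the data were seen. The former leaves TGFBRi rat 3 as the only treated library of day 0, whose spread is assumed to be that of the other groups, so its values describe that rat and are no replicated result.

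**Figure D1:**
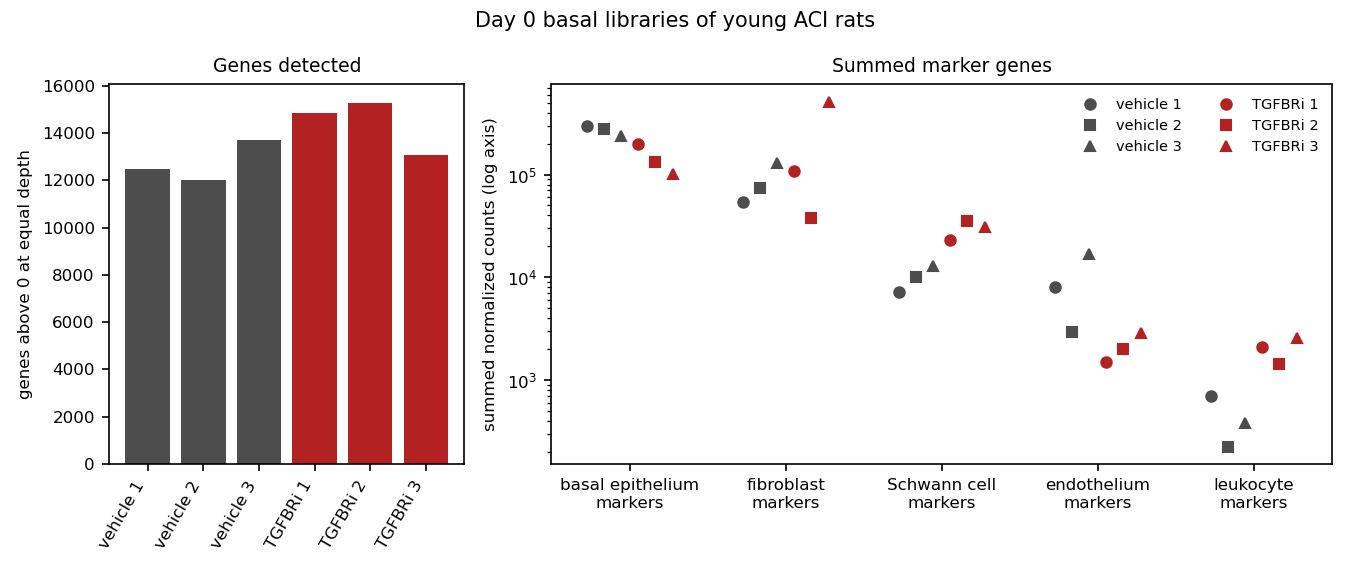
The left panel plots the number of genes above 0 in each of the 6 day 0 basal libraries after thinning to 4194912 reads, and the right panel plots the summed normalized counts of 5 marker lists per library on a log axis. TGFBRi rats 1 and 2 have the most genes above 0 (14867 and 15297), basal markers are lower and Schwann cell and leukocyte markers higher in all 3 TGFBRi rats, and the fibroblast sum of TGFBRi rat 3 (511972) stands above the other 5.

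Of 15643 genes tested, 523 (3.34%) passed an adjusted p of 0.05 or less by limma, 392 (2.51%) raised and 131 (0.837%) lowered by TGFBRi. Lowered genes were mostly well covered, with 123 of 131 at a mean of at least 50 reads per library, and included KRT5, UCP2, IGFBP4, CAPN6 and the endothelial selectins SELE and SELP. By contrast, 283 of the 392 raised genes had a mean under 50 reads, and TF, TMOD2, RXRG and CREB5 were among the better covered ones. Values of all 3 TGFBRi rats lay above all 3 vehicle values for 2569 tested genes (16.4%) and below them for 2455 (15.7%), and this held for 382 of the raised and 130 of the lowered genes in their own direction. The median log2 difference of all genes tested was 0.30, and 0.23 to 0.38 under the other scalings (TMM or median centring in limma, edgeR and DESeq2). It was 0.05 for genes with a mean of 50 to 500 reads and −0.20 for those with 500 or more. Well covered genes below are therefore read against these 2 medians. The 6014 of all 15643 genes with a difference below 0 include genes with few reads.

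The excess of raised genes lay among genes with few reads. Genes with a mean under 10 reads had a median log2 difference of 1.76 with 157 raised and 1 lowered, while genes with 500 reads or more had a median of −0.20 with 27 raised and 73 lowered. Without TGFBRi rats 1 and 2 these medians were 0 and −0.06, and 113 genes were called, 46 raised and 67 lowered, in a fit with 1 treated library of day 0. Counts of calls rested on single rats, with 2749 genes called without TGFBRi rat 3, and 180, 70, 75 and 76 without TGFBRi rat 1, TGFBRi rat 2, vehicle rat 1 and vehicle rat 2. The split turned with edgeR and TMM scaling on the recovered reads (30 raised, 46 lowered) and in a limma fit of the 6 libraries alone (633 raised, 1005 lowered), and without TGFBRi rat 2 (33 raised, 37 lowered), but not with DESeq2 on the recovered reads (876 raised, 352 lowered). Genes were therefore followed in most detail where they were called in each fit with a library left out, by edgeR and by DESeq2, with a mean of at least 50 reads. There were 27 such genes, 20 lowered and 7 raised.

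Among TGFβ pathway genes, the feedback inhibitor PMEPA1 fell, and the ligands, receptors and SMADs did not pass the test by limma. PMEPA1, a membrane protein that holds receptor-activated SMADs away from the receptor, had 8898, 6493 and 4965 normalized counts in the vehicle rats and 2008, 2688 and 1448 in the TGFBRi rats. The groups did not overlap, and the log2 difference was −1.73 (standard error 0.37, adjusted p = 0.0273 by limma and 0.0479 by edgeR). The call was lost without TGFBRi rat 1, TGFBRi rat 2, vehicle rat 1 or vehicle rat 2, with log2 differences of −1.95 to −1.50 over the fits with a library left out, and it was −2.19 (adjusted p = 0.0942) without both TGFBRi rats 1 and 2.

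The 3 TGFβ ligands were not called in bulk by limma or edgeR with all libraries. TGFB2 had 229.7, 289 and 259 normalized counts with vehicle and 469, 520.4 and 1607 with TGFBRi, a log2 difference of 1.50 (adjusted p = 0.0588 by limma, 0.0992 by edgeR, 0.00266 by DESeq2) that was 2.63 with TGFBRi rat 3 as the only treated library and 0.94 without it. Its TGFBRi values were all above the vehicle values, the highest in the rat with the most fibroblast signal, while TGFB1 and TGFB3 overlapped between groups with log2 differences of 0.39 and 0.07. In the single cells described below TGFB2 was also raised (0.55, adjusted p = 0.0224 by edgeR), and TGFB1 and TGFB3 were not called. The TGFB2 difference was 0.99 at day 7, −0.41 at day 14 and 0.74 in SD rats, none past the threshold. Of 7 receptor genes none passed, with a median log2 difference of 0.25. TGFBR1, the gene of the drug's target kinase, had 1503, 988 and 929.9 normalized counts with vehicle and 739, 524 and 1551 with TGFBRi, overlapping groups with a log2 difference of −0.40 (standard error 1.35). TGFBR2 and TGFBR3, the signalling type II receptor and a coreceptor, differed by 0.78 and 0.28 with standard errors of 0.98 and 1.06.

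Of 14 SMADs, feedback inhibitors and latent TGFβ binding proteins tested, PMEPA1 was lowered (0.837% of all genes) and 11 had a log2 difference below 0 (6014 of all 15643 genes), with a median of −0.49 (−0.56 to −0.40 under the other scalings). SMAD7, the inhibitory SMAD that blocks the receptor, had 6057, 3228 and 4554 normalized counts with vehicle and 2312, 1038 and 2443 with TGFBRi. Its groups did not overlap, but the log2 difference of −1.31 had a standard error of 0.85 and did not pass (adjusted p = 0.340 by limma). SMAD7, like other list members named here although they were not called, was partly chosen after its values were seen. SMAD2, SMAD3 and SMAD4, which carry the signal, differed by −0.17, −0.26 and −0.04.

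Of 30 TGFβ target genes tested, PMEPA1 was lowered. A log2 difference below 0 was seen for 17 of the 30, beside 6014 of all 15643 genes. The median was −0.09, beside 0.30 for all genes and −0.20 for those with 500 reads or more. It was −0.16 with TMM scaling and −0.005 with median centring in limma, 0.05 by edgeR and 0.11 by DESeq2. The TGFBRi values were all below vehicle for 9 of the 30 and all above for 7, against 15.7% and 16.4% of all genes. CTGF (CCN2), a matricellular protein, had 11259, 13853 and 10809 normalized counts with vehicle and 4396, 7043 and 3513 with TGFBRi. LTBP2, a matrix protein of the latent TGFβ binding family, had 3205, 4635 and 2363 with vehicle and 876, 172 and 52.7 with TGFBRi. Neither gene overlapped between groups, and neither passed, with log2 differences of −1.32 (adjusted p = 0.0692) for CTGF and −4.02 (adjusted p = 0.0581) for LTBP2 by limma. On the other side stood TGFBI, a secreted matrix protein, with 275, 598 and 889 normalized counts with vehicle and 1716, 1823 and 5601 with TGFBRi (log2 difference 2.30, adjusted p = 0.0542), and LOX, the collagen crosslinking oxidase, with a difference of 2.49 (adjusted p = 0.0859). Both were highest in TGFBRi rat 3. Without TGFBRi rats 1 and 2 the median of the list was 0.32, and without TGFBRi rat 3 it was −0.38.

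**Figure D2:**
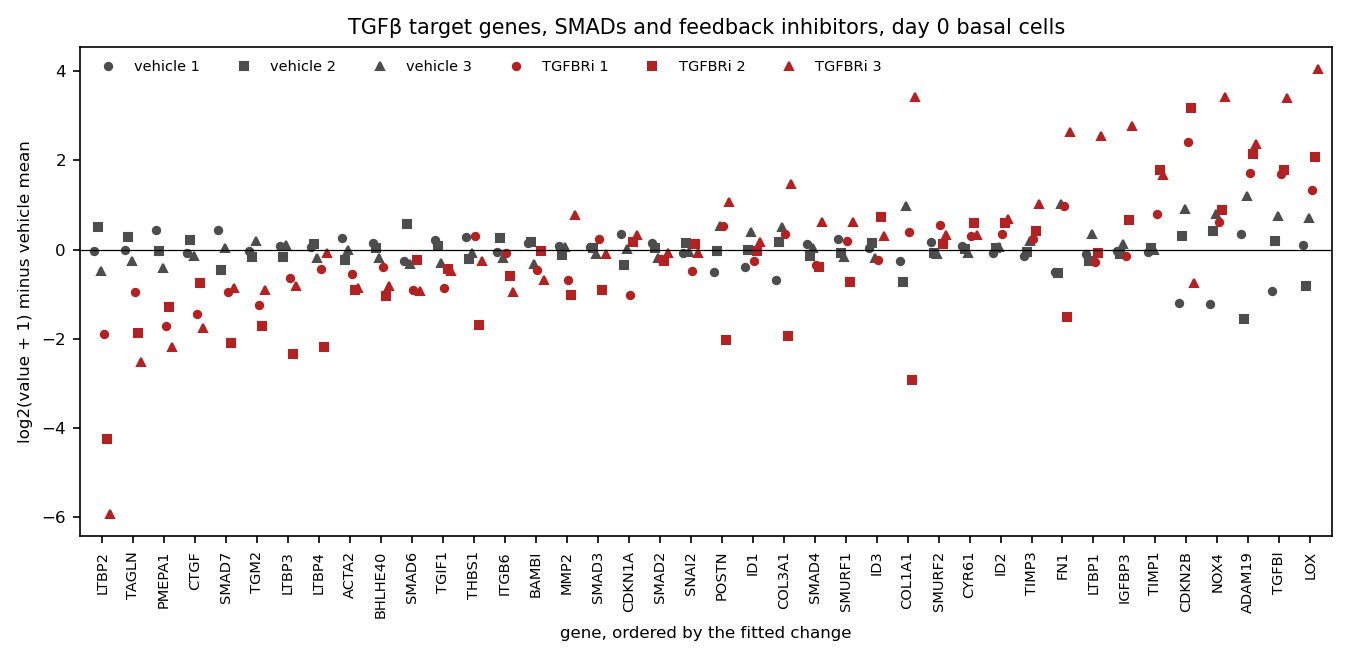
Each point is a library, plotted as log2 of the normalized count plus 1 minus the vehicle mean, for genes of the TGFβ target and SMAD lists in order of the fitted difference. PMEPA1 (log2 difference −1.73) is lower in all 3 TGFBRi rats, and toward the right several genes such as TGFBI (2.30) are highest in TGFBRi rat 3.

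The promoters of PMEPA1, LTBP2 and CTGF are shown because these were the members of the target list with non-overlapping lower values and the smallest p, chosen after the values were seen. SMADs bind the letters CAGAC, read on either strand as CAGAC or GTCTG, which are in capitals below. The sequences are from RefSeq on the GRCr8 build, 250 bases before to 50 after the start of the gene, whereas the reads had been counted on the rn6 build. PMEPA1 lies on chr3:182478600-182478899, LTBP2 on chr6:110257249-110257548 and CTGF, listed as Ccn2, on chr1:22624565-22624864, all on the minus strand.
PMEPA1: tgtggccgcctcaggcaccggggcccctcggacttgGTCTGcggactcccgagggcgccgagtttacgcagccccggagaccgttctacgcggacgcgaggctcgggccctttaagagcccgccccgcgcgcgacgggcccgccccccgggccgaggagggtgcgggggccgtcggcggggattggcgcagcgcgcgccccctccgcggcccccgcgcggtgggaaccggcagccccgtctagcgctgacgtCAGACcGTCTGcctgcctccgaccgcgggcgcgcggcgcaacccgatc
LTBP2: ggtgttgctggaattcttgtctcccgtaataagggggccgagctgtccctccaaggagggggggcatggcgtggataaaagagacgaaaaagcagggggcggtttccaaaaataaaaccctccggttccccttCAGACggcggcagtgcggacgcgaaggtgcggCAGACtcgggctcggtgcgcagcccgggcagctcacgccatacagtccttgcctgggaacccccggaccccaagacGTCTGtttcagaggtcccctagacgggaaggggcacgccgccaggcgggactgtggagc
CTGF: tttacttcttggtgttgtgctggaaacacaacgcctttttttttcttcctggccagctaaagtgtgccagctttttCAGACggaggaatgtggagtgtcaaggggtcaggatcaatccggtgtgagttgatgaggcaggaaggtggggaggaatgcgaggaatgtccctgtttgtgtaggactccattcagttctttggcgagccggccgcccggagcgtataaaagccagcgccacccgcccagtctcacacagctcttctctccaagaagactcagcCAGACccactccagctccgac
PMEPA1 and LTBP2 held 3 such elements each and CTGF 2, and CTGF also held 3 copies of GGAATG, the letters bound by TEAD factors, which overlap no CAGAC. None of the 3 held the palindrome GTCTAGAC or the AP-1 letters TGAGTCA. Of 33469 rat promoters of this length, 50.1% held CAGAC, 14.2% GGAATG, 4.63% TGAGTCA and 0.197% GTCTAGAC on either strand. CAGAC was in 10 of the 21 tested target genes with a promoter in the table (47.6%), which is close to the share of all promoters, and no binding of SMADs was measured here.

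Of the genes of basal identity, the keratins KRT5 and KRT15 fell and the others did not pass the test. KRT5, the type II keratin of basal epithelium, had 21987, 22126 and 16839 normalized counts with vehicle and 9412, 9677 and 4474 with TGFBRi. The groups did not overlap, and the log2 difference was −1.44 (standard error 0.31, adjusted p = 0.0245 by limma, 0.0628 by edgeR). It remained past the threshold in 3 of the 6 fits with a library left out, and was lost without TGFBRi rat 2, vehicle rat 1 or vehicle rat 2. KRT15 had 44366, 34487 and 39417 with vehicle and 15824, 12336 and 4029 with TGFBRi, a log2 difference of −2.09 at an adjusted p of 0.0490 by limma that was lost in each of the 6 such fits, with differences of −2.48 to −1.49. KRT14 and KRT17, the partner keratins of KRT5, were lower in every TGFBRi rat but did not pass, with differences of −1.25 (adjusted p = 0.0762) and −1.32 (adjusted p = 0.108). Of 17 basal keratins and identity factors 2 were lowered and 0 raised, beside 0.837% lowered and 2.51% raised of all genes, and the median was −0.25, or −0.04 without TGFBRi rats 1 and 2. The TGFBRi values were all below vehicle for 6 of the 17 and all above for 4, namely TEAD1, NGFR, LGR5 and VIM with log2 differences of 0.59, 0.89, 3.78 and 1.16, none past the threshold. The transcription factors of the list had differences of −0.70 for TP63, −0.15 for SNAI2, 0.22 for SOX9 and −0.25 for SOX10, none past the threshold. All 9 basal epithelium markers had a log2 difference below 0 (median −1.01), also without TGFBRi rats 1 and 2 (median −1.87) and without TGFBRi rat 3 (−0.72).

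Most contractile genes of myoepithelium had differences below 0, but none of the 15 passed the test. ACTA2, smooth muscle actin, had 8703, 6138 and 7159.6 normalized counts with vehicle and 4986, 3873 and 4024 with TGFBRi, groups that did not overlap. Its log2 difference was −0.77 (standard error 0.46, adjusted p = 0.302 by limma), and this standard error also holds the spread of days 7 and 14. CNN1, calponin, went from 35902 to 46514 with vehicle to 9443 to 25152 with TGFBRi (−1.39, adjusted p = 0.102). MYH11 and MYLK, smooth muscle myosin and its kinase, overlapped between groups with −0.49 and −0.33. The TGFBRi values were all below vehicle for 7 of the 15 genes (15.7% of all genes), 13 had a difference below 0, and the list median of −0.77 was −0.84 to −0.68 over the other scalings, −0.85 without TGFBRi rats 1 and 2 and −0.58 without TGFBRi rat 3. Since a bulk library averages all sorted cells, fewer basal cells in the sort and less RNA of these genes per basal cell cannot be told apart.

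Matrix genes went both ways. Of 17 hemidesmosome and basement membrane genes, FRAS1 was raised and 0 were lowered, beside 2.51% raised and 0.837% lowered of all genes. FRAS1, a basement membrane protein of epithelia, had 2.57, 14.7 and 27.7 normalized counts with vehicle and 147, 329 and 67.9 with TGFBRi (log2 difference 3.68, adjusted p = 0.0499 by limma, lost without TGFBRi rat 1, TGFBRi rat 2, vehicle rat 1 or vehicle rat 2). It was also not called by edgeR (adjusted p = 0.117) or without TGFBRi rats 1 and 2 (2.56, adjusted p = 0.574). The list median was −0.58, and −0.18 without TGFBRi rats 1 and 2, and the laminin chain LAMB3 and the collagen COL4A1, lower in each TGFBRi rat, differed by −1.70 and −1.94 with standard errors of 0.89 and 0.94. Of 34 interstitial matrix genes DCN was raised and FBLN1 lowered, beside the same shares of all genes. DCN, the proteoglycan decorin of fibroblasts, had 2528, 4383 and 7188 with vehicle and 11547, 19472 and 89734 with TGFBRi. Its log2 difference was 2.66 (standard error 0.64, adjusted p = 0.0372 by limma), 1.80 without TGFBRi rat 3 and 4.38 with that rat as the only treated library. FBLN1, fibulin-1, had 435, 412 and 363 with vehicle and 143, 38.3 and 165 with TGFBRi (−2.04, standard error 0.42, adjusted p = 0.0234). Both were lost without TGFBRi rat 2, vehicle rat 1 or vehicle rat 2, and by edgeR (adjusted p = 0.0628 for either), and FBLN1 also without TGFBRi rats 1 and 2 (adjusted p = 0.203). The median of the interstitial list was 0.22, 1.12 without TGFBRi rats 1 and 2 and −0.43 without TGFBRi rat 3, and the fibroblast marker sums of 54539.7 to 128395 with vehicle and 37513 to 511972 with TGFBRi overlapped. Their part in these results was not tested.

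Most genes of the G2/M phase of the cell cycle had differences below 0, and BIRC5 fell. Of 46 tested genes BIRC5 was lowered and 0 were raised (0.837% and 2.51% of all genes), 37 had a log2 difference below 0 (6014 of all 15643 genes), and the values of 21 were lower in all TGFBRi rats (15.7% of all genes). The median of −0.86 was −0.93 to −0.71 over the other scalings, −1.36 without TGFBRi rats 1 and 2 and −0.40 without TGFBRi rat 3. BIRC5, survivin, which acts at the centromere in mitosis, had 132, 187 and 90.1 normalized counts with vehicle and 8.06, 9.58 and 22.3 with TGFBRi. The log2 difference was −3.33 (standard error 0.77, adjusted p = 0.0339 by limma), lost without TGFBRi rat 1, TGFBRi rat 2, vehicle rat 1 or vehicle rat 2 and by edgeR (adjusted p = 0.111). MKI67, the proliferation marker Ki-67, had 608, 556 and 872 with vehicle and 409, 367 and 313 with TGFBRi, groups that did not overlap, at a difference of −0.88 that did not pass (adjusted p = 0.107). None of 36 S phase genes was called, with a median of −0.30. TYMS, thymidylate synthase, differed by −2.42 (adjusted p = 0.0656), while PCNA, the replication clamp, had 7231 to 10218 with vehicle and 7292 to 9048 with TGFBRi, a difference of −0.09.

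The cell cycle genes CCNA2 and TK1, outside these lists, were among the lowered genes. CCNA2, cyclin A2, had 771, 757 and 405 normalized counts with vehicle and 163, 144 and 161 with TGFBRi. The groups did not overlap, and the log2 difference of −1.98 (standard error 0.33, adjusted p = 0.00780 by limma) passed with any library left out, by edgeR and by DESeq2, though not without both TGFBRi rats 1 and 2 (−1.93, adjusted p = 0.111). TK1, the thymidine kinase of dividing cells, had 411, 615 and 158 with vehicle and 74.5, 12.8 and 0 with TGFBRi (−5.08, or −3.88 by edgeR and −6.53 to −3.41 with a library left out, adjusted p = 0.0241 by limma), a size that depends on the added 1, and the call was lost without TGFBRi rat 2, vehicle rat 1 or vehicle rat 2 and by edgeR (adjusted p = 0.0997).

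The 20 lowered genes called in each of these fits included genes of metabolism, growth factor binding and secreted matrix. UCP2, a carrier of the inner mitochondrial membrane, had 18241, 16787 and 10919.6 normalized counts with vehicle and 3099, 1599 and 1809 with TGFBRi. Every TGFBRi value lay below every vehicle value, a log2 difference of −2.85 (standard error 0.38, adjusted p = 0.00497 by limma) that was −3.05 without TGFBRi rats 1 and 2. IGFBP4, which binds insulin-like growth factors, had 3987, 3429 and 3625 with vehicle and 542, 246 and 1027 with TGFBRi. It fell by 2.83 on the log2 scale (standard error 0.48, adjusted p = 0.00857) and did not overlap between groups, but missed the threshold without TGFBRi rats 1 and 2 (−1.84, adjusted p = 0.219). Within its list of 18 insulin and IGF pathway genes it was the one called, beside 0.837% of all genes lowered. The list median was 0.02, with 0.60 without TGFBRi rats 1 and 2 and −0.22 without TGFBRi rat 3. IGFBP2, a relative of IGFBP4 at 42990.1 to 64085 with vehicle and 3104 to 16380.1 with TGFBRi, just missed (−2.59, adjusted p = 0.0518 by limma).

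Among the lowered genes of largest change, CAPN6, a calpain without protease activity, had 4194, 3621 and 3531 normalized counts with vehicle and 405, 255 and 187 with TGFBRi (log2 difference −3.81, standard error 0.60, adjusted p = 0.00600 by limma). DLK1, a membrane protein related to NOTCH ligands, had 1522, 646 and 1136 with vehicle and 129, 47.9 and 37.5 with TGFBRi (−4.05, standard error 0.63, adjusted p = 0.00600). EMID1, a secreted protein with an EMI domain, had 1665, 1737 and 1302 with vehicle and 286, 153 and 74 with TGFBRi (−3.38, standard error 0.41, adjusted p = 0.00497). The groups of these 3 genes did not overlap. TMEM59L, a membrane protein, and CNIH2, an auxiliary protein of glutamate receptors, differed by −3.55 and −5.77 in the same way, but CNIH2, at 0 in TGFBRi rat 2, had −4.65 by edgeR and −7.15 to −4.58 with a library left out. LOC259244, at 404, 399 and 229.9 with vehicle and 14.1, 9.58 and 1.01 with TGFBRi (−5.61, adjusted p = 0.00564), belongs to a multigene family with near-identical copies, so that its reads may be split between loci. MIA, a small secreted protein, and TMEM200A fell as well (−3.90 and −4.14, the latter −5.24 to −2.56 with a library left out), but both were lost without TGFBRi rat 2, vehicle rat 1 or vehicle rat 2.

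The other lowered genes of this kind changed by less. TINAGL1, a secreted matrix protein, had 7359, 9788 and 8480.0 normalized counts with vehicle and 2831, 3333 and 2444 with TGFBRi (log2 difference −1.58, standard error 0.25, adjusted p = 0.00646 by limma). PSAT1, an enzyme of serine synthesis, had 1993, 1618 and 1555 with vehicle and 707, 425 and 381 with TGFBRi (−1.82, standard error 0.30, adjusted p = 0.00693). In both, the 2 groups were separated by more than the range within either. DDAH1, which degrades methylated arginines, fell by 2.19, SLC27A3, an acyl-CoA synthetase, by 1.70, and MAGED2 by 1.46 on the log2 scale. CSDC2, a cold shock domain protein, NT5DC2, the ectonucleotidase ENTPD8 and RNF208 fell by 1.73, 2.82, 2.48 and 2.34. Adjusted p-values of these 7 genes lay between 0.00600 and 0.00885 by limma.

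The 7 raised genes of this kind were TF, TMOD2, RXRG, CREB5, SRGAP1, APBB1IP and FCGR2B. TF, transferrin, which carries iron, had 1239, 1487 and 2779 normalized counts with vehicle and 9398, 11627 and 9042 with TGFBRi. It rose by 2.53 on the log2 scale (standard error 0.40, adjusted p = 0.00646 by limma) with no overlap, and by 2.39 (adjusted p = 0.111) without TGFBRi rats 1 and 2. TMOD2, which caps actin filaments, had 133, 178 and 253 with vehicle and 864, 2232 and 2270.1 with TGFBRi (3.17, standard error 0.50, adjusted p = 0.00600). RXRG, a nuclear receptor of the retinoid X family, had 78, 133 and 86.6 with vehicle and 489, 878 and 748 with TGFBRi (2.81, standard error 0.46, adjusted p = 0.00665). CREB5, a transcription factor, rose from 119 to 168 with vehicle to 479 to 849 with TGFBRi (2.08), and SRGAP1, a GTPase activating protein, from 44.8 to 107.4 with vehicle to 286 to 295 with TGFBRi (2.15). The groups of these 5 genes did not overlap, and each was high in TGFBRi rat 3 as well as in the 2 shallow libraries. APBB1IP, an adaptor of integrin signalling in blood cells, rose by 3.70, and FCGR2B, an inhibitory Fc receptor of leukocytes, by 3.82, from at most 35.8 normalized counts with vehicle to at least 167 with TGFBRi.

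Markers of Schwann cells and leukocytes moved with these raised genes. The 6 Schwann cell markers summed to 7149 to 12827 with vehicle and 22856 to 35613 with TGFBRi. MBP, a myelin protein, rose by 1.91 (adjusted p = 0.0237 by limma), and 5 of the 6 were higher in every TGFBRi rat (16.4% of all genes), with only SOX10, which basal cells also express, on the other side (−0.25). The 13 leukocyte markers summed to 224 to 698 with vehicle and 1427 to 2570.2 with TGFBRi, 10 of them were higher in every TGFBRi rat (16.4% of all genes), and LAPTM5 and ITGAM rose by 2.61 and 4.07 (adjusted p = 0.0372 and 0.0396), 2 of the 13 beside 2.51% of all genes. PTPRC, the gene of CD45, had 111, 0.815 and 55.4 with vehicle and 238, 208 and 318 with TGFBRi, although the sort was gated against it. The part of these cells in the raised genes was not tested. Sums of skeletal muscle markers (4835 to 8455 with vehicle, 3639.6 to 5596 with TGFBRi) and adipocyte markers (1335 to 6069 and 2602 to 8203) overlapped, but 7 of the 8 muscle markers and 6 of the 7 adipocyte markers had differences above 0, with medians of 2.71 and 1.59 (3.60 and −0.35 without TGFBRi rats 1 and 2). MYH4 and RETN, of these lists, rose from values near 0. None of the luminal markers was called. Luminal progenitor markers summed to 4113 to 6273 with vehicle and to 14721, 8010.2 and 4706 in TGFBRi rats 1 to 3, with a median of 0.80 that was −0.39 without TGFBRi rats 1 and 2, and pan-luminal keratins summed to 33000.4 to 43315 with vehicle and 22160.2 to 46885 with TGFBRi.

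The other large rises were mostly of genes with low vehicle values. CCL22, a chemokine that attracts T cells, had 0, 0 and 1.16 normalized counts with vehicle and 153, 16.0 and 371 with TGFBRi (adjusted p = 0.0348 by limma, 0.0942 by edgeR), and the fitted log2 difference of 6.26 depends on the count of 1 added before the log. MYO7B, an unconventional myosin, had 4.29, 0.815 and 12.7 with vehicle and 199, 223 and 272 with TGFBRi (5.50, adjusted p = 0.0121). ADCY2, an adenylate cyclase, had 0, 3.26 and 25.4 with vehicle and 183, 156 and 302 with TGFBRi (5.42, or 4.28 to 6.64 with a library left out, adjusted p = 0.00857 by limma, 0.0679 by edgeR). These genes separated by group, but without TGFBRi rats 1 and 2 none of the 3 was called. CCL22 was also lost without TGFBRi rat 1, vehicle rat 1 or vehicle rat 2, and MYO7B without TGFBRi rat 2 or vehicle rat 2. SCN3B, UNC13B, MYH4, SLC1A7, EDA, MYOC, IL31RA and SLITRK2, among them genes of neurons and of skeletal muscle, rose by 3.99 to 5.75, sizes that depend on the added 1 where a vehicle value lies near 0, and each was called in 1 to 4 of the 6 fits with a library left out.

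SELE, SELP and PLVAP, genes of the endothelium, were among the most strongly lowered. SELP, P-selectin, had 2280.0, 1003 and 5057 normalized counts with vehicle and 143, 131 and 46.6 with TGFBRi (log2 difference −4.55, standard error 0.76, adjusted p = 0.00792 by limma). SELE, E-selectin, had 535, 193 and 564 with vehicle and 12.1, 9.58 and 0 with TGFBRi (−6.23, or −6.90 to −5.05 with a library left out, adjusted p = 0.00600). PLVAP, a protein of endothelial fenestrae, had 1963, 546 and 3516 with vehicle and 28.2, 134 and 168 with TGFBRi (−4.16, standard error 0.76, adjusted p = 0.0133). No values overlapped, and the 2 selectins were called with any library left out, while PLVAP was lost without vehicle rat 1 and without TGFBRi rats 1 and 2 (−3.20, adjusted p = 0.203). Of the 14 endothelium markers tested these 3 were lowered, beside 0.837% of all genes. The 14 summed to 2919.6 to 16739 with vehicle and 1504 to 2846 with TGFBRi, although the sort excluded CD31+ cells. In vehicle basal libraries they summed to 521 to 3509 at day 7 and 1634 to 3281 at day 14. The day 0 TGFBRi sums thus lay within the vehicle range of day 7, and the highest day 0 vehicle sum lay above both later ranges. The other 11 markers were not called, as for PECAM1, the gene of CD31, with 284, 142 and 1148 with vehicle and 36.2, 134 and 404 with TGFBRi (−1.51, adjusted p = 0.341). The list median was −1.53 and −0.26 without TGFBRi rats 1 and 2, and the part of endothelial cells in these values was not tested.

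Other signalling families held 0 to 2 calls each, to be read against the 3.34% of all genes called. In the WNT list SFRP2, a secreted WNT antagonist, fell from 711, 1695 and 1183 normalized counts to 354, 428 and 98.3 (log2 difference −2.19, adjusted p = 0.0395 by limma), the only call among 29 genes. Among 23 BMP and ID genes BMP7, a ligand, fell from 1509, 2254 and 1325 to 733, 581 and 457 (−1.51, standard error 0.33, adjusted p = 0.0260). Neither gene overlapped between groups, yet edgeR did not call them (adjusted p = 0.0867 and 0.0597). Of the fits with 1 library left out, SFRP2 kept its call only without TGFBRi rat 3, and BMP7 was lost without TGFBRi rat 2, vehicle rat 1 or vehicle rat 2. BTC, an EGF receptor ligand, rose from 0, 4.89 and 1.16 to 42.3, 95.8 and 37.5 (4.54, adjusted p = 0.0149, lost without TGFBRi rat 2 or vehicle rat 1, without TGFBRi rats 1 and 2 and by edgeR at 0.107), a size that depends on the added 1, while EGFR itself differed by −0.03. None of 18 NOTCH pathway genes was called, with −0.12 to 0.64 for the 4 receptors NOTCH1 to NOTCH4. CSF3, the granulocyte growth factor, fell from 1015, 495 and 723 to 262, 214 and 216 (−1.63, adjusted p = 0.0407 by limma), beside CCL22 the other call among 31 chemokines and cytokines. With a library left out CSF3 kept its call only without TGFBRi rat 3, and edgeR did not call it (adjusted p = 0.0628). Immediate early and heat shock genes, which dissociation of tissue can induce, held 0 calls among 23, with a median of 0.30 beside 0.30 for all genes and −0.20 for genes with 500 reads or more, and 0.69 beside 0.02 for all genes without TGFBRi rats 1 and 2. The TGFBRi values of 9 of the 23 were all above vehicle (16.4% of all genes), FOS (0.44) and EGR1 (0.97, adjusted p = 0.0743) among them, while JUN overlapped (0.04).

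**Figure D3:**
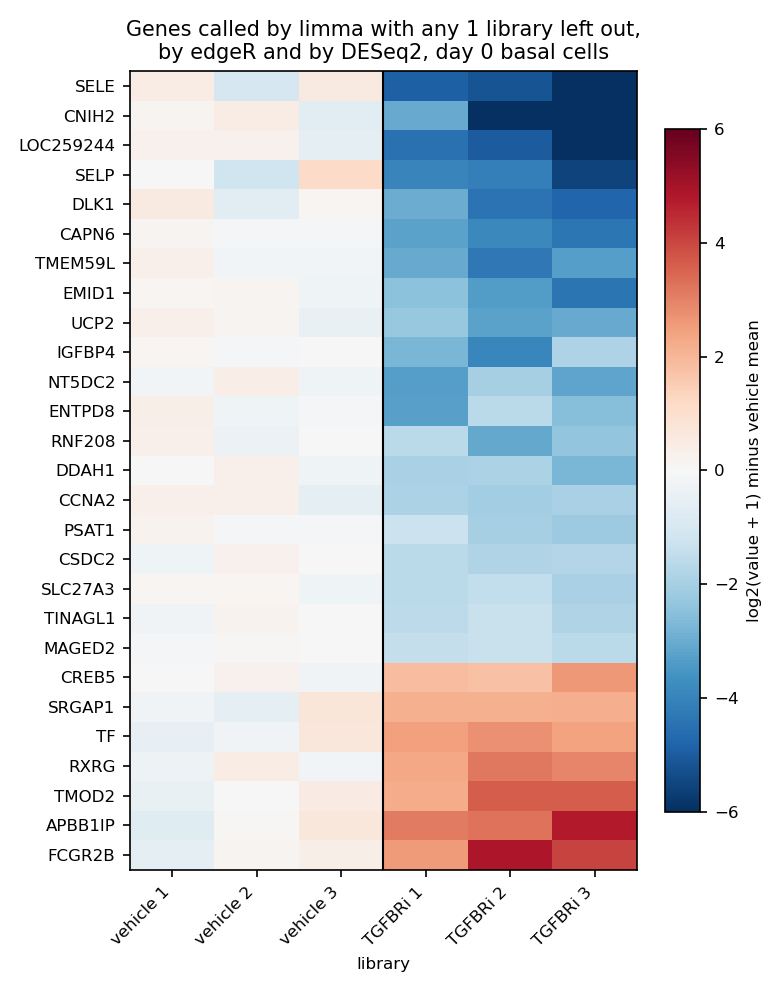
Rows are the 27 genes called by limma with any library left out, by edgeR and by DESeq2 at a mean of at least 50 reads, columns are the 6 libraries, and color gives log2 of the normalized count plus 1 minus the vehicle mean, cut at 6 in either direction. All 20 lowered and 7 raised genes differ from vehicle in the same direction in each of the 3 TGFBRi rats.

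Day 7 and day 14 libraries, from other ACI rats collected 7 and 14 days after the last dose with 3 rats per group, were fitted in the same model. The day 0 difference was not shown to differ from the day 7 difference for any gene (0 of 15643, 0%, by limma and 0 by edgeR, with 918 genes at an unadjusted p under 0.05 by limma), but 131 genes passed without TGFBRi rat 3. Against day 14 it differed for 1 gene, TF (0.00639%). The genes raised at day 0 with a mean of at least 50 reads had a median log2 difference of 2.36 at day 0, 1.24 at day 7 and −0.14 at day 14, and the lowered ones −1.60, −0.32 and −0.08, where the day 0 values are those that selected them. At day 7 itself LGALS4 was called and at day 14 no gene. A label of vehicle rat 3 of day 7 calls it treated, while its title and treatment field give control, as used here.

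TF had 324, 738 and 474 normalized counts with vehicle and 924, 1806 and 1563 with TGFBRi at day 7, and 8776, 7266 and 9868 with vehicle and 3484, 2106 and 1486 with TGFBRi at day 14. It was thus higher with TGFBRi in every rat at days 0 and 7 and lower in every rat at day 14, and the difference between the day 0 and day 14 effects was 4.48 on the log2 scale (standard error 0.57, adjusted p = 0.0117 by limma), a call that was lost without TGFBRi rat 2, vehicle rat 1 or vehicle rat 2 of day 0. TF is abundant in luminal cells, and luminal progenitor markers in basal libraries of day 14 summed to 14510 to 146246 with vehicle and 10211 to 22348 with TGFBRi, with a list median of −1.99 at day 14 and 0.80 at day 0. Their part in the TF values was not tested. PMEPA1 had 4443 to 8148 with vehicle and 7413 to 12901 with TGFBRi at day 7, and 7580.1 to 15187 and 8798 to 14189 at day 14. Those groups overlapped, and the differences between the day 0 effect and the later ones, −2.29 and −1.60, were not called (adjusted p = 0.305 and 0.272). UCP2 had 22119.7 to 43835 with vehicle and 14763 to 21539 with TGFBRi at day 7, and overlapped at day 14. TMOD2 was still above vehicle in every rat at day 7, at 153 to 314 against 29.4 to 80.7, and at day 14 had 40.3 to 45.4 against 43.8 to 112. Schwann cell marker sums were also apart at day 7, at 7243 to 15049 against 2919 to 5473, and overlapped at day 14. KRT5 at day 7 had 22902 to 29449 with vehicle and 14241 to 17522 with TGFBRi, groups that did not overlap, and they overlapped at day 14.

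**Figure D4:**
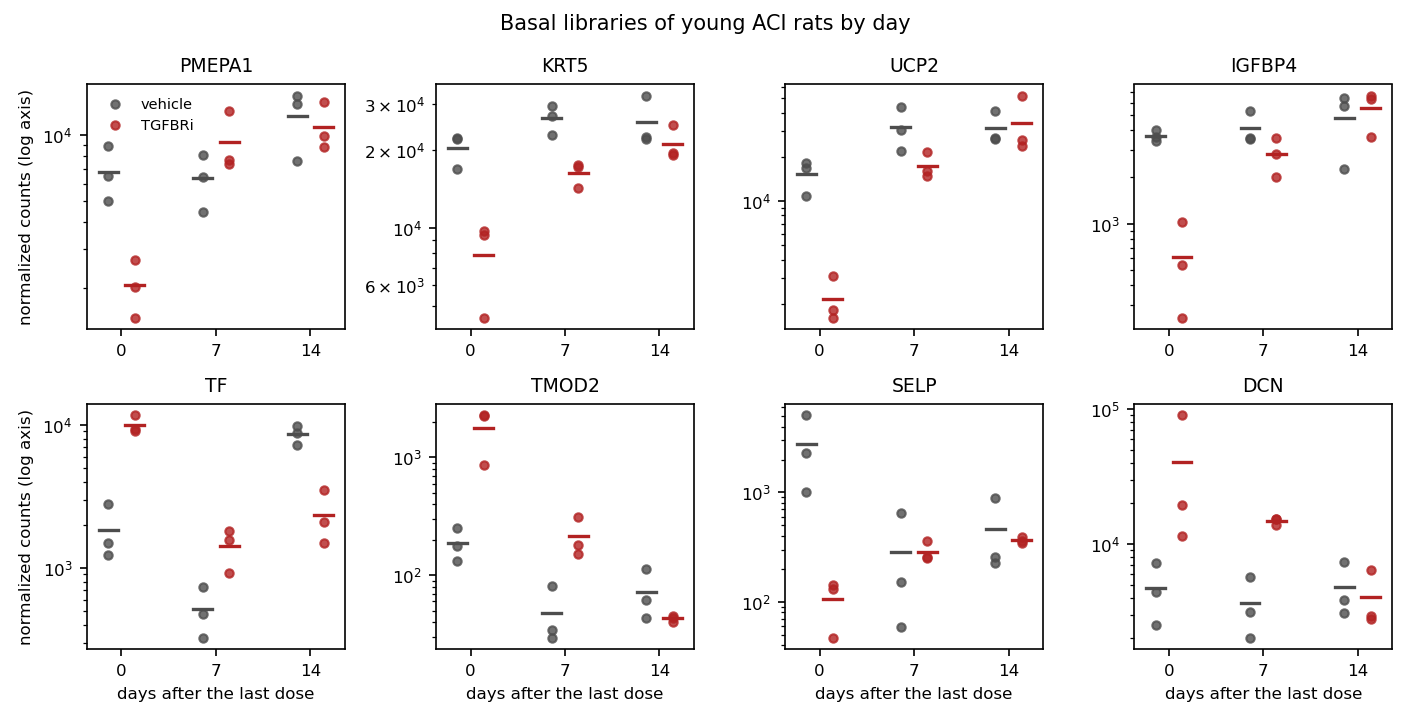
Normalized counts of 8 genes are plotted on log axes for each basal library at 0, 7 and 14 days after the last dose, with a bar at each group mean (n = 3 rats per group and day). TF changes from higher with TGFBRi at day 0 (9042 to 11627 against 1239 to 2779) to lower at day 14, and the groups of UCP2, PMEPA1, IGFBP4 and SELP overlap at day 14.

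Luminal libraries of the same 6 rats allowed each rat's basal value to be set against its luminal value. The luminal libraries of TGFBRi rats 1 and 2 stood apart as their basal ones did, with 10192039 and 8922897 reads and 15060 and 15143 genes above 0, against 18568520 to 21160386 reads and 12096 to 13296 genes in the other 4. The basal difference departed from the luminal one for 144 of 15590 genes (0.924%) by limma on differences within rats, of which 40 were also called in basal cells, and for 14 to 161 genes when a rat was left out. UCP2 had 9194 to 11999.6 normalized counts with vehicle and 2358 to 8001 with TGFBRi in luminal cells, a log2 difference of −1.06, and the basal effect was lower, at −1.78 relative to it (standard error 0.34, adjusted p = 0.0430). IGFBP4, with 159 to 173 against 71.9 to 169 in luminal cells, had a basal effect of −2.29 relative to the luminal one (adjusted p = 0.0114). CAPN6, DLK1 and LOC259244 had at most 49.7 normalized counts in any luminal library, so that their basal values have no luminal counterpart of size. PMEPA1 was lower in luminal cells too, at 1797, 1549.7 and 1491 with vehicle and 436, 739 and 625 with TGFBRi. The basal and luminal effects on it (−1.73 and −1.45) were not shown to differ (−0.28 between them, standard error 0.28, adjusted p = 0.699). CTGF and LTBP2 were likewise lower in all luminal libraries of TGFBRi rats, with −1.55 and −3.62, and CCNA2 and BIRC5 with −2.09 and −4.04. TF had 71710.4 to 91337 with vehicle and 131796 to 259175 with TGFBRi in luminal cells. SELP was lower there on average (−1.98) with overlapping groups. Of the genes with the largest rises, MYO7B, MYH4 and IL31RA also rose in luminal cells, by 5.03, 6.31 and 3.62 (adjusted p = 0.00626, 0.00356 and 0.0411 by limma). FCGR2B rose there by 3.43 (adjusted p = 0.0205 by limma). These luminal p-values came from a fit that did not pair the libraries by rat. CCL22 and ADCY2, at 3.03 and 1.88, did not pass in luminal cells, and SLC1A7 had −1.35.

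Young SD rats, an outbred strain dosed from 24 days of age, gave 4 vehicle and 4 TGFBRi basal libraries at day 0, scaled separately. There limma called 0 of 12571 genes (0%), with 494 at an unadjusted p under 0.05, and edgeR called 0 and DESeq2 4. The genes lowered in ACI rats with a mean of at least 50 reads had a median log2 difference of −0.24 in SD rats and the raised ones 0.14, against −0.02 for all genes. PMEPA1 had 1143 to 5731 normalized counts with vehicle and 2694 to 8721 with TGFBRi, overlapping groups with a difference of 0.55 (standard error 0.53). UCP2, at −0.28, also overlapped, while FBLN1 had 834 to 1305 with vehicle and 369 to 619 with TGFBRi. TF, SELE and SELP had differences of 1.02, 1.35 and 0.60, with overlapping groups. Whether the strains differ was not tested, since their tables were normalized separately and the rats differed in age.

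The same sort of ACI rats at day 0 was also measured by single-cell RNA-seq in 3 vehicle and 3 TGFBRi rats, other animals with 9880 cells in all. Cells are not replicates, so UMIs were summed per rat over all deposited cells, without a doublet caller, and 8 of 9872 distinct barcodes occurred in more than 1 library. Unlike the bulk libraries, the deposited cells had been filtered, as each held at least 2 keratin UMIs and 0 of them a PTPRC UMI, so that leukocytes and cells without keratin that a bulk library may hold were left out. Of 14094 genes edgeR called 3488 (24.7%). Of the 250 bulk calls tested in both, 29 were called here in the same direction and 31 in the opposite one. The 29 were 11.6% of these bulk calls and 1.03% of the 2810 single-cell calls tested in both. Of the genes lowered in bulk at 50 reads or more, 15 of 120 were lowered and 26 raised here, and of the raised ones 12 of 83 were raised and 3 lowered, beside 1659 (11.8%) raised and 1829 lowered of all 14094 genes. Whether these shares differ was not tested. PMEPA1 had 812, 874 and 1048 CPM (UMIs scaled by library totals adjusted with TMM) with vehicle and 799, 664 and 937 with TGFBRi, overlapping at a log2 difference of −0.19 (adjusted p = 0.347 by edgeR). KRT5 had 854 to 1254 with vehicle and 813 to 895 with TGFBRi (−0.28, adjusted p = 0.132), KRT14 was lower in every TGFBRi rat at 429 to 439 against 510.4 to 569 (−0.30, adjusted p = 0.0334), and UCP2 overlapped (−0.07). Of the 27 genes followed in most detail, RXRG and FCGR2B were not tested here, and 0 of the rest were called in their bulk direction. The lowered genes LOC259244, NT5DC2 and PSAT1 were raised here by 1.82, 1.08 and 1.00 on the log2 scale (adjusted p = 0.0293, 0.00643 and 0.000292 by edgeR). MIA, lowered in bulk, was likewise higher here, with 206 to 235 with vehicle and 320.2 to 458 with TGFBRi (0.80, adjusted p = 0.000802). By contrast, TMEM200A and SFRP2 were lowered both in bulk and here (−0.66 and −0.49, adjusted p = 0.00708 and 0.0463 by edgeR). SELE and SELP lay at 0.131 CPM or less in all libraries but that of vehicle rat 1, where they had 10.9 and 6.77.

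Side by side, the lists gave different medians in the other comparisons. The G2/M list had −0.86 in basal cells at day 0, −0.74 at day 7, 0.33 at day 14, −0.91 in luminal cells at day 0, −0.54 in SD rats and 0.17 in single cells. Contraction genes had −0.77 at day 0, 0.65 at day 7, −0.56 at day 14, 0.00 in luminal cells, 0.01 in SD rats and 0.05 in single cells. TGFβ target genes had −0.09, 0.69, −0.19, 0.15, −0.00 and 0.11 in the same order.

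**Figure D5:**
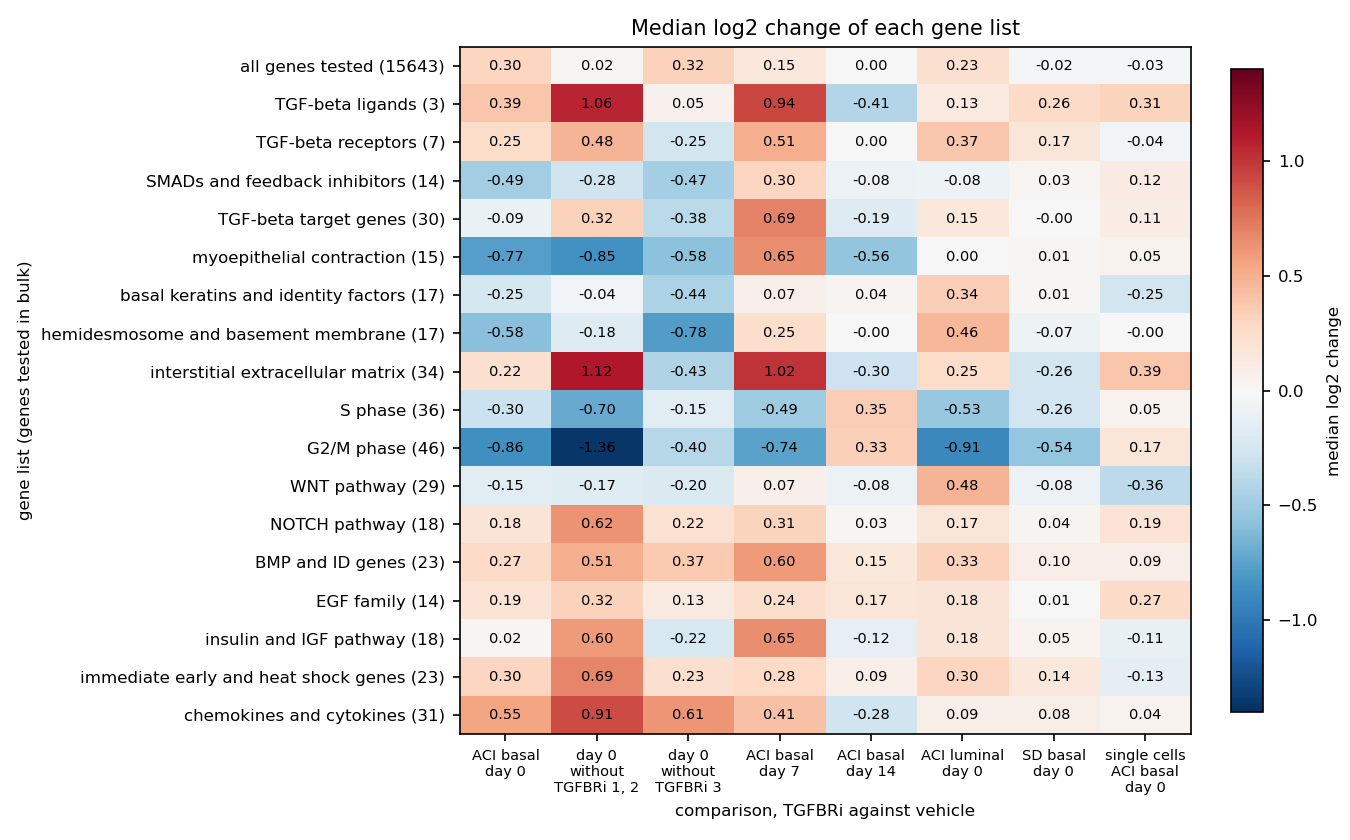
Each cell gives the median log2 difference, TGFBRi against vehicle, of a gene list (rows, with the number of genes tested) in a comparison (columns), and the first row gives all genes tested. Of the 17 lists shown, which leave out the cell type markers, the G2/M list (−0.86) and the contraction list (−0.77) have the lowest medians in basal cells at day 0 (all genes 0.30), and also without TGFBRi rats 1 and 2 (−1.36 and −0.85, all genes 0.02), but without TGFBRi rat 3 the hemidesmosome list is lowest (−0.78), with contraction at −0.58 and G2/M at −0.40.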

How the data were processed

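Members and gene lists were chosen with earlier results of these data known. Per the labels, RNA of sorted cells was amplified by SMARTer, sequenced, aligned to rn6 by STAR and counted by HTSeq, and the authors deposited counts divided by DESeq2 size factors, a signal here called normalized count. Dividing each library by its smallest value above 0 gave whole reads for all values (tolerance 0.001). The authors also deposited single-cell UMI counts from Cell Ranger. Basal libraries of days 0, 7 and 14 (18 in 6 groups) were fitted by limma (3.58.1, R 4.3.3, trend and robust) on log2(value + 1), where the values summed to 10 or more, with Benjamini-Hochberg adjustment, and fold changes of low genes are understated by the added 1. edgeR (4.0.16, quasi-likelihood) and DESeq2 (1.42.0) were run on recovered reads as alternatives. Basal and luminal effects were compared by limma on differences within rats, paired by the animal in the labels. Luminal effects alone were fitted by limma on the basal and luminal libraries of day 0 together, without pairing by rat. The sort gated out doublets by scatter, the methods name no doublet caller, and none was run here. Per the methods, cells with a PTPRC read or under 2 keratin reads were removed, and the deposited cells were checked for this. Single-cell UMIs were summed per rat and tested by edgeR. Named genes were the 12 of largest change per direction that averaged 50 reads or more and did not overlap, up to 20 called in every fit, and called or first members of each list. The code was tested on simulated data. Some genes of the lists are not reported here by name.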

Additional observations from a re-analysis of the deposited data

Results flagged for a closer look

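For 12 genes chosen by the naming rule, and for the Schwann cell marker MBP, the basal effect of TGFBRi at day 0 differed from the luminal effect in the same rats (limma on differences within rats, adjusted p of 0.05 or less). On the log2 scale the basal effect minus the luminal effect was −8.61 for LOC259244, −7.42 for CAPN6, −5.78 for TMEM200A, −5.43 for SFRP2, −3.21 for MIA, −2.71 for EMID1, −2.43 for KRT15, −2.29 for IGFBP4 and −1.78 for UCP2. It was 3.45 for APBB1IP, 1.89 for CREB5, 1.76 for MBP and 0.95 for DCN. CAPN6, TMEM200A, SFRP2 and LOC259244 had at most 3.64 normalized counts in any vehicle luminal library, and their luminal differences of 1.64 to 3.61 depend on the added 1.

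With all libraries, TF was the only gene whose effect in basal cells differed between day 0 and day 14 by limma, by 4.48 on the log2 scale, higher with TGFBRi in 3 of 3 rats at day 0 and lower in 3 of 3 at day 14, where luminal progenitor markers were lower too (list median −1.99). The call was lost without TGFBRi rat 2, vehicle rat 1 or vehicle rat 2, and without TGFBRi rat 3 661 genes passed.

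In SD rats the lowest of 4 vehicle libraries (library 2) stood apart for SLC27A3, at 762 normalized counts. Chance flags about 1 in 20 such groups, and 58 were checked.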

How the results depend on the processing

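Of the values of single genes and lists under an alternative, 1179 stayed on their side of the threshold or within the replicate spread, 171 missed the threshold in the same direction and 44 moved. The medians of some lists, TGFβ targets and receptors among them, crossed 0. The 523 calls at day 0 became 1228 by DESeq2, 76 by edgeR, 1638 with the 6 day 0 libraries alone, 1120 with 5 added before the log, 239 for genes with a mean of at least 10 reads, 334 after thinning to equal depth and 70 to 2749 with a library left out. Without both TGFBRi rats 1 and 2, chosen after seeing the data and leaving 1 treated library, 113 were called. With a library left out, the day 0 effect differed from day 7 for 0 to 131 genes and from day 14 for 0 to 661. The basal minus luminal calls, paired by rat, numbered 144 against 71 with no replicate block and 14 to 161 with a rat left out. SD rats gave 4 calls by DESeq2 and 0 to 1 with a library left out, and single cells 2265 to 3076 with a rat left out. TGFBRi rats 1 and 2 have the fewest reads, so low genes there are the least certain. The causes of these shifts were not tested.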
